A study of Mus musculus with 24 samples.

Results

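The genes described here encode the TGF-β ligands (Tgfb1, Tgfb2 and Tgfb3), their receptors (Tgfbr1, Tgfbr2 and Tgfbr3) and the latent TGF-β binding proteins (Ltbp1, Ltbp2, Ltbp3 and Ltbp4). These 10 genes were chosen by name among the 55291 gene symbols counted, at a time when earlier results of these data were known. All 10 passed the filter on low counts, as did 16258 genes in all. Pulmonary fibroblasts came from C57BL/6 mice of 2 genotypes, wild type (WT) and TLR4-/-, and received PBS, recombinant mouse CIRP (rmCIRP, 1 μg/mL), recombinant mouse TGF-β1 (rmTGF-β1, 2 ng/mL) or the pair of proteins together, each over 24 h. CIRP is a cold-inducible RNA-binding protein that acts as an inflammatory signal through the receptor TLR4 once it is outside the cell. The study asked how it changes these fibroblasts, with and without TGF-β1, and whether TLR4 is needed. Each of the 8 conditions had 3 libraries of total RNA, and 24 libraries were analysed. The mice were 4 to 8 weeks old, their cells were pooled from 3 to 4 lungs and used at passages 3 to 6 after a night in serum-reduced medium. Whether the 3 libraries of a condition came from separate cultures is not stated, so p-values measure the spread between libraries, which may be technical.

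TGF-β is secreted in a latent form. The mature dimer stays wrapped in its own propeptide. That small latent complex can be joined to some of the latent TGF-β binding proteins, which tether it to the extracellular matrix. The family members differ in this, so the mRNA level of a binding protein gene does not measure stored TGF-β. Integrins, proteases and other matrix proteins release the active dimer, which binds the type II receptor (Tgfbr2), recruits the type I receptor (Tgfbr1) and starts phosphorylation of SMAD transcription factors. Tgfbr3, or betaglycan, is a co-receptor that presents ligand, TGF-β2 above all, and its shed form can sequester ligand. In lung fibroblasts this pathway is best known for driving matrix production and contractile differentiation.

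Each library held 29853346 to 39664606 reads on genes. Values below are normalized counts, that is, reads divided by the size factor of the library, and are compared between genes only after division by exon length in kilobases. Fold changes are on the log2 scale with their standard error (SE), and a gene was called where the Benjamini-Hochberg adjusted p of edgeR's quasi-likelihood test over all 16258 genes was under 0.1. Tlr4, the gene named by the knockout, was not lower in libraries labelled TLR4-/- (891.0 to 926.7 normalized counts with PBS, against 718.0 to 801.7 in WT), so these are called libraries labelled TLR4-/- throughout. All 10 fibroblast markers looked at were well expressed, but 13 of 13 macrophage markers were too, with a summed level of 92149 to 100467 in WT libraries and of 350957 to 400735 in libraries labelled TLR4-/-, both with PBS. The transcript Xist, which is made from the inactive X chromosome of female cells, was at 4619 to 5055 normalized counts in the latter and at no more than 3.00 in the former. Genotype, macrophage content and the sex of the pooled animals thus cannot be told apart in any comparison between genotypes. Library 3 labelled TLR4-/- with both proteins lay furthest from the other libraries of its condition, with a root mean square log2 distance over genes of 0.433. Library 1 of that condition followed at 0.354, against 0.279 to 0.334 for the other 22 libraries. Fold changes that rest on that condition are given with and without library 3.

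Reads of an antisense partner cannot be told apart from those of the gene itself unless counting used the strand, which is not given in the sources used here. In the GENCODE M21 annotation, exons of Tgfb2, Tgfb3 and Ltbp2 share bases with genes on the other strand, over 2.14% to 9.34% of their exon length per partner, and those of Tgfbr3 share 4.54% with Gm43422 on the same strand. Apart from D030025P21Rik, which overlaps Ltbp2, these partners had at most 13 reads in any library.

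Among the 10 genes, Ltbp2 and Tgfb3 had the most reads per kilobase in unstimulated WT cells. With PBS the level per kilobase was 7875 for Ltbp2, 4015 for Tgfb3, 1749 for Ltbp1, 795.0 for Tgfb1, 770.6 for Ltbp3, 682.5 for Tgfbr2, 609.6 for Tgfbr1, 263.9 for Tgfbr3, 127.3 for Ltbp4 and 78.4 for Tgfb2 (means of 3 libraries). The libraries of Tgfb1 and Ltbp3 overlapped on this scale, as did those of Tgfbr2 and Tgfbr1, and the other neighbours in this order did not overlap. Per kilobase, Tgfb3 therefore made up 82.1% ± 1.6 (SD, n = 3) of the reads on the 3 ligands in these cells, Tgfb1 16.3% ± 1.7 and Tgfb2 1.60% ± 0.11. Ltbp2 made up 73.9% to 79.3% of the reads per kilobase on the binding protein genes in the 8 conditions (means of 3 libraries). The lowest was that of the condition labelled TLR4-/- with both proteins, at 75.9% without its library 3.

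**Figure D1:**
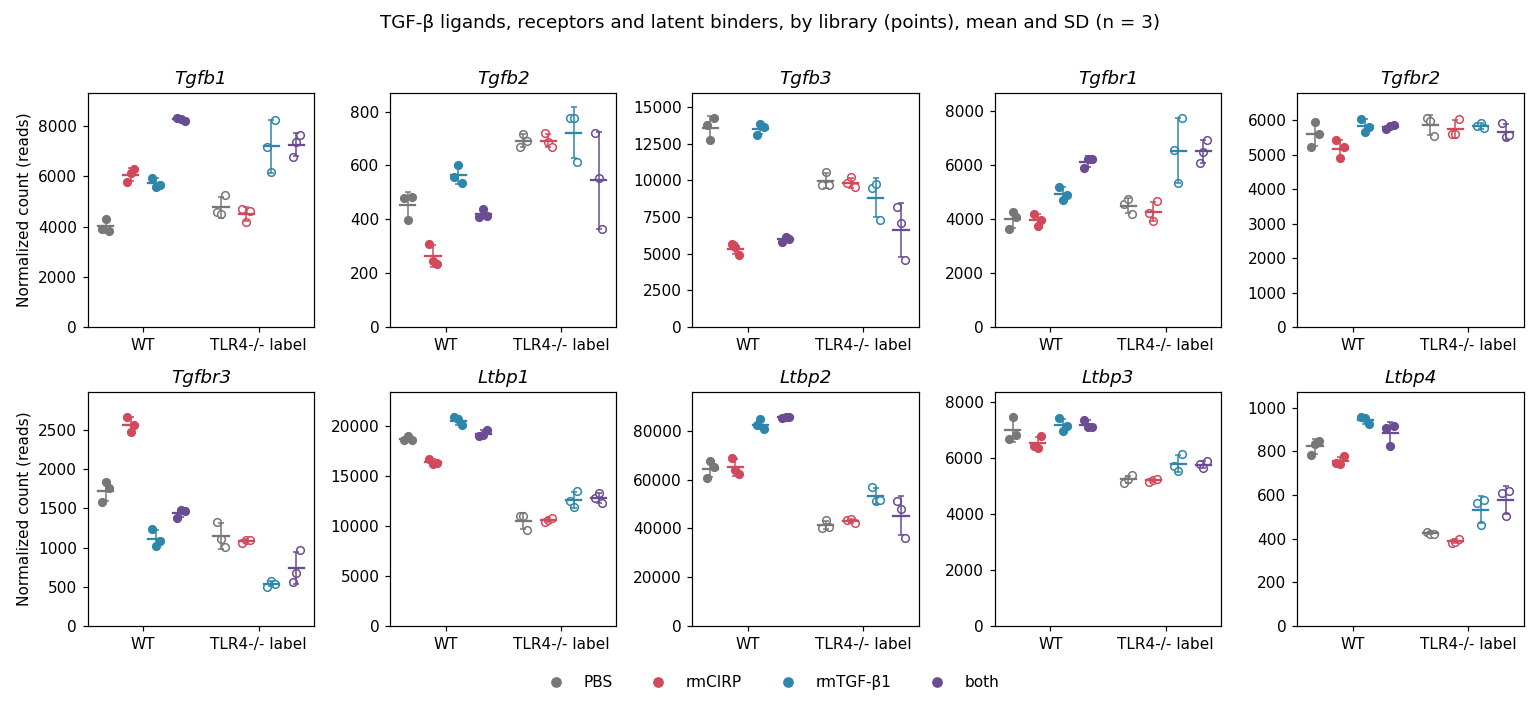
Normalized counts (reads divided by the library's size factor) of each of the 10 genes in each library, with filled points for WT and open points for libraries labelled TLR4-/-, and horizontal bars and whiskers for the mean and SD of 3 libraries. Colours mark PBS, rmCIRP, rmTGF-β1 and both proteins. Tgfb3 in WT cells fell from 12734 to 14238 with PBS to 4932 to 5681 with rmCIRP, while it stayed between 9521 and 10564 in libraries labelled TLR4-/- with either.

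The ligand genes responded to rmCIRP in opposite directions in WT cells. Tgfb1 rose, and Tgfb2 and Tgfb3 fell. The 250 bases before the RefSeq start of Tgfb1 and Tgfb2 (GRCm38.p6) are shown for these ligand genes of opposite response, 5′ to 3′ on the strand of the gene, with matches to the searched motifs in capitals.
Tgfb1, chr7:25686752-25687001, plus strand: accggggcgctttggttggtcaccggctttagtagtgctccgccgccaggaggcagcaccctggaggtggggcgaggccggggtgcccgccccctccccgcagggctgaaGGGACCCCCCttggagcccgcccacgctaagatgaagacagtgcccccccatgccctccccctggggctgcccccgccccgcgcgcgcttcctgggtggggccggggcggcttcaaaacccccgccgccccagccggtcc
Tgfb2, chr1:186705990-186706239, minus strand: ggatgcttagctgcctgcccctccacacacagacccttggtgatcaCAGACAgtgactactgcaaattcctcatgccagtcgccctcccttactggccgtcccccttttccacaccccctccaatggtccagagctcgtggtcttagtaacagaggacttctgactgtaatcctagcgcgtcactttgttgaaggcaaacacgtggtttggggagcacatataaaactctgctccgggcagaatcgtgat
The motifs searched on both strands were the NF-κB consensus, the AP-1 motif TGANTCA and the SMAD-binding CAGACA. The Tgfb1 window held 1 NF-κB match, 140 bases before the start, and the Tgfb2 window held 1 CAGACA, 204 bases before it. CAGACA was not particular to Tgfb2, as a window of Tgfbr1 held 1 match and a window of Ltbp1 held 2. Of 32851 mouse promoter windows of this length, 7.25% held the NF-κB consensus, 17.1% CAGACA and 6.75% TGANTCA. A match is a string of letters and not a measured binding site. Of the 10 genes, 8 matched a RefSeq promoter entry, and Tgfb3 and Tgfbr3 did not. The window of Tgfb3, the ligand gene that fell most, was thus not searched.

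Tgfb3 had the largest response to rmCIRP of the 10 genes. Its libraries held 13781, 12734 and 14238 normalized counts with PBS and 5681, 5440 and 4932 with rmCIRP in WT cells. The conditions were far apart, and the level with rmCIRP was 0.392 of that with PBS (log2 fold change -1.35, SE 0.13, adjusted p = 2.95e-08). Tgfb2, the least abundant ligand gene, had 479.3, 399.4 and 482.9 normalized counts with PBS and 309.9, 246.9 and 235.1 with rmCIRP. It fell by 0.79 on the log2 scale (SE 0.17, adjusted p = 0.000642), with no overlap between libraries. Tgfb1, by contrast, had 3899, 4310 and 3817 normalized counts with PBS and 5773, 6127 and 6282 with rmCIRP. It rose 1.51-fold (log2 fold change 0.59, SE 0.08, adjusted p = 3.1e-06).

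These changes altered the make-up of ligand mRNA. Per kilobase, Tgfb3 had 5.08 ± 0.60 times the reads of Tgfb1 with PBS and 1.32 ± 0.15 times with rmCIRP (SD, n = 3), and the ratios of the libraries did not overlap. With both proteins in WT cells the ratio was 1.08 ± 0.03. In libraries labelled TLR4-/- it was 3.13 ± 0.38 with PBS and 3.27 ± 0.30 with rmCIRP, which overlapped.

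**Figure D2:**
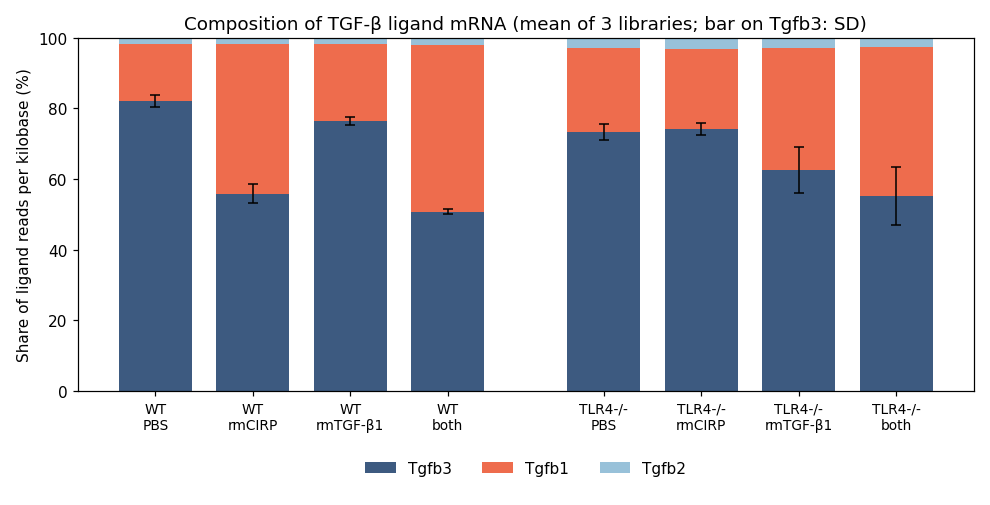
Share of each ligand gene in the reads per kilobase on the 3 ligand genes (vertical axis, percent), as the mean of 3 libraries in each of the 8 conditions (horizontal axis), with a black bar for the SD of the Tgfb3 share. In WT cells the Tgfb3 share went from 82.1% (PBS) to 55.9% (rmCIRP), while libraries labelled TLR4-/- had 73.4% and 74.2%.

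Among the receptor genes, the co-receptor Tgfbr3 responded most to rmCIRP in WT cells. It had 1582, 1837 and 1763 normalized counts with PBS and 2663, 2470 and 2560 with rmCIRP, and rose 1.48-fold without overlap (log2 fold change 0.56, SE 0.11, adjusted p = 0.000444). The signaling receptors moved little. Tgfbr2 was between 5234 and 5933 normalized counts with PBS and between 4899 and 5410 with rmCIRP. It was called lower (log2 fold change -0.12, SE 0.05, adjusted p = 0.055), although the libraries overlapped. Tgfbr1 was between 3641 and 4250 with PBS and between 3733 and 4186 with rmCIRP. It was not called, and the 95% interval of its log2 fold change ran from -0.21 to 0.18.

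Of the binding protein genes, Ltbp1 fell slightly with rmCIRP in WT cells, from 18546, 19009 and 18547 to 16680, 16211 and 16223 normalized counts (log2 fold change -0.20, SE 0.05, adjusted p = 0.00196). Ltbp3 was called lower with overlapping libraries (log2 fold change -0.10, SE 0.04, adjusted p = 0.062). Ltbp2, the binding protein gene with the most reads per kilobase, was not called, with a 95% interval from -0.16 to 0.17. Ltbp4 was not called either (log2 fold change -0.13, SE 0.07, adjusted p = 0.162), although its libraries did not overlap. The calls of Tgfbr2 and Ltbp3 depended on single libraries and on the fit. Both were lost without the filter on low counts (-0.10 and -0.09) and in a fit of only the libraries compared (-0.10 and -0.08), and Ltbp3 also with a mean count of at least 10 (-0.08). Ltbp4, by contrast, was called lower in the fit of only the libraries compared, at -0.11. Tgfbr2 was not called without WT library 2 or 3 with PBS (log2 fold change -0.06 and -0.12) or without WT library 2 or 3 with rmCIRP (-0.07 and -0.11). Ltbp3 was not called without WT library 2 with PBS (-0.04) or without WT library 1 or 2 with rmCIRP (-0.10 and -0.07).

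In all, 2 of the 10 genes rose and 5 fell with rmCIRP in WT cells. Of all genes tested, 43.9% were called, 19.8% higher and 24.1% lower, so a call alone was common in this comparison. The median log2 fold change was -0.11 over the 10 genes and -0.02 over all genes. The libraries of 6 of the 10 genes did not overlap, as for 50.8% of all genes. The summed level of the fibroblast markers was 580816 to 618814 with PBS and 463713 to 501083 with rmCIRP, and that of the macrophage markers 92149 to 100467 and 80763 to 86124. Of the macrophage markers, 9 fell and 4 rose, and of the fibroblast markers 6 fell and 2 rose. Their part in the values above was not tested. In bulk RNA, fewer cells of a type and less RNA per cell cannot be told apart.

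In cells labelled TLR4-/-, none of the 10 genes was called with rmCIRP, and 0% of all genes tested were called by edgeR. At an unadjusted p under 0.05 there were 1136 genes, 6.99% of those tested, and none of the 10 among them. DESeq2 called 33 genes, none of the 10. Tgfb3 had 9675, 10564 and 9648 normalized counts with PBS and 9812, 10193 and 9521 with rmCIRP, with a 95% interval of the log2 fold change from -0.28 to 0.25. Tgfb1 had 4558, 4502 and 5254 with PBS and 4684, 4197 and 4623 with rmCIRP, with an interval from -0.24 to 0.08. Tgfbr3 was at 1323, 1116 and 1007 with PBS and at 1059, 1102 and 1103 with rmCIRP. The libraries overlapped for 9 of the 10 genes, the exception being Ltbp4, and those of 13.7% of all genes did not overlap. Over the 10 genes the 95% intervals lay between -0.32 and 0.31.

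Whether rmCIRP acted differently in the genotypes was itself tested, and the difference was called for 5 of the 10 genes, against 31.4% of all genes (17.1% higher and 14.3% lower). Expressed as the response in libraries labelled TLR4-/- minus that in WT, it was higher for Tgfb3 (1.34, SE 0.18, adjusted p = 9.98e-06), Tgfb2 (0.80, SE 0.22, adjusted p = 0.0106) and Ltbp1 (0.22, SE 0.07, adjusted p = 0.0192). It was lower for Tgfb1 (-0.67, SE 0.11, adjusted p = 0.000104) and Tgfbr3 (-0.64, SE 0.17, adjusted p = 0.00686). The difference was called for neither Tgfbr1 nor Ltbp2, whose intervals ran from -0.33 to 0.22 and from -0.18 to 0.29.

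**Figure D3:**
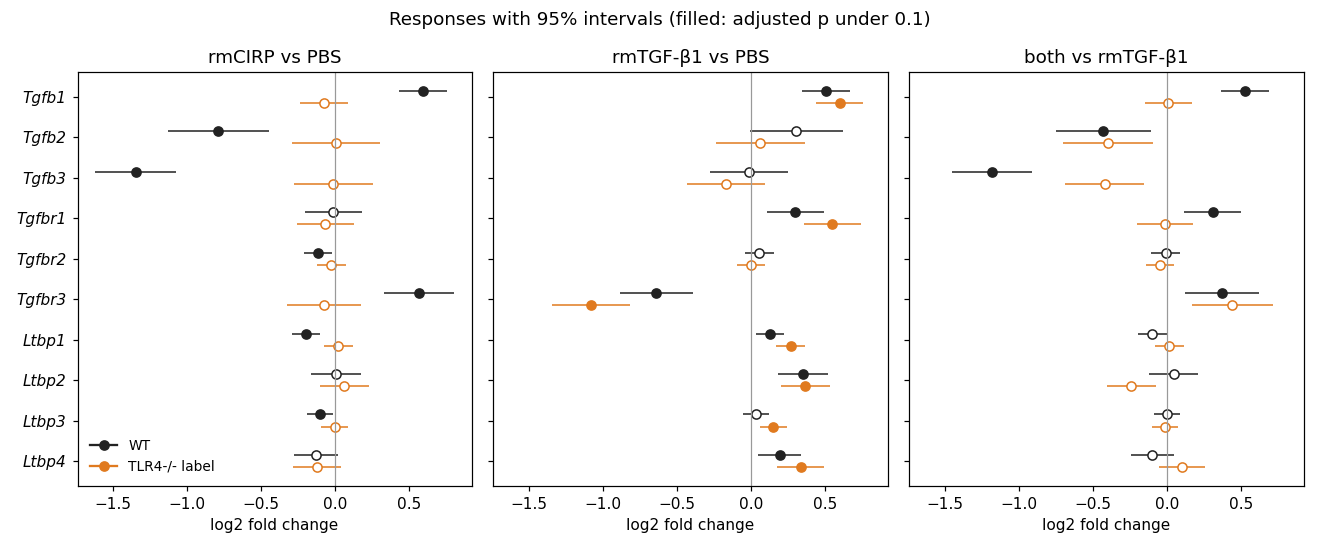
Log2 fold changes of the 10 genes (points) with 95% intervals (lines) in 3 comparisons (each single protein against PBS, and both proteins against rmTGF-β1), in WT cells (black) and cells labelled TLR4-/- (orange). Filled points had an adjusted p under 0.1. With rmCIRP, Tgfb3 was at -1.35 in WT cells and its interval spanned 0 in cells labelled TLR4-/-, while rmTGF-β1 lowered Tgfbr3 in both, by -0.64 and -1.08.

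The recombinant ligand raised the gene of the same ligand. With rmTGF-β1, Tgfb1 in WT cells was at 5942, 5553 and 5653 normalized counts, all above the PBS libraries, and rose 1.42-fold (log2 fold change 0.51, SE 0.08, adjusted p = 2.00e-04). Cells labelled TLR4-/- had 7176, 6156 and 8241, again above PBS, a rise of 1.51-fold (log2 fold change 0.60, SE 0.08, adjusted p = 1.15e-05). The other ligand genes were not called in either genotype, although Tgfb2 in WT cells was called without the filter on low counts and in a fit of only the libraries compared, at 0.32 in each, and Tgfb3 in cells labelled TLR4-/- without the filter, at -0.19. For Tgfb3 the 95% interval was -0.28 to 0.25 in WT cells and -0.44 to 0.10 in cells labelled TLR4-/-. For Tgfb2 in WT cells it was -0.01 to 0.62, with 556.8, 599.9 and 533.3 normalized counts that all lay above PBS (log2 fold change 0.31, SE 0.15, adjusted p = 0.244).

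Receptor genes moved in opposite directions with rmTGF-β1. Tgfbr3 fell to 1233, 1017 and 1087 normalized counts in WT cells (log2 fold change -0.64, SE 0.12, adjusted p = 0.00121) and to 505.6, 571.7 and 544.1 in cells labelled TLR4-/- (log2 fold change -1.08, SE 0.13, adjusted p = 3.42e-06). Libraries with rmTGF-β1 and with PBS overlapped in neither genotype. Tgfbr1 was at 5190, 4684 and 4880 in WT cells with rmTGF-β1, above all PBS libraries (log2 fold change 0.30, SE 0.09, adjusted p = 0.0481). It was at 6546, 5314 and 7730 in cells labelled TLR4-/- (log2 fold change 0.55, SE 0.09, adjusted p = 0.000225). The WT call of Tgfbr1 was lost without library 1 or 3 with PBS (0.26 and 0.31) or library 1 or 3 with rmTGF-β1 (0.26 and 0.30). Tgfbr2 was not called, and its 95% intervals were -0.04 to 0.15 and -0.10 to 0.10.

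With rmTGF-β1, 3 of the 4 binding protein genes rose in WT cells and all 4 in cells labelled TLR4-/-. Ltbp3 was not called in WT cells, with a 95% interval from -0.06 to 0.12. Ltbp2 went from 60788, 67496 and 65059 to 82243, 84601 and 80612 normalized counts in WT cells (log2 fold change 0.35, SE 0.08, adjusted p = 0.00748). In cells labelled TLR4-/- it went from 40370, 43455 and 40554 to 56823, 51058 and 51758 (log2 fold change 0.37, SE 0.08, adjusted p = 0.00262). Ltbp1 and Ltbp4 were also called higher in WT cells, by 0.13 (SE 0.05, adjusted p = 0.0994) and 0.19 (SE 0.07, adjusted p = 0.0904). Both calls were lost without any single library of either condition, at 0.11 to 0.15 for Ltbp1 and 0.18 to 0.22 for Ltbp4. With the replicate number as a block Ltbp1 was not called either. Ltbp1 in cells labelled TLR4-/- rose by 0.27 (SE 0.05, adjusted p = 0.000342), Ltbp3 by 0.15 (SE 0.04, adjusted p = 0.0168) and Ltbp4 by 0.34 (SE 0.08, adjusted p = 0.0036). Ltbp3 was at 0.11 and not called without library 3 with rmTGF-β1.

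With rmTGF-β1, 5 of the 10 genes rose and 1 fell in WT cells, where 12.4% of all genes were called, 5.77% higher and 6.65% lower. Those labelled TLR4-/- had 6 that rose and 1 that fell, where 23.9% of all genes were called, 12.1% higher and 11.7% lower. Medians over the 10 genes were 0.16 and 0.21, and over all genes -0.02 and -0.00149. Libraries of 7 of the 10 genes did not overlap in each genotype, as for 29.7% and 33.8% of all genes. The difference between genotypes in this response was called for none of the 10 genes and for 0.0861% of all genes (0.0369% higher and 0.0492% lower). At an unadjusted p under 0.05 it held 2 of the 10 genes and 1686 genes in all (10.4%), and DESeq2 called 163 genes, none of the 10. For Tgfbr3 the difference was -0.44 (95% interval -0.80 to -0.08, adjusted p = 0.355). The macrophage marker sum overlapped between rmTGF-β1 and PBS in each genotype (83624 to 95739 against 92149 to 100467 in WT cells), and 1 of the 13 markers was called, lower, in each.

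rmCIRP added to rmTGF-β1 changed the ligand genes of WT cells in the same directions as rmCIRP alone, in libraries that the comparison with PBS did not use. Tgfb3 was at 13098, 13813 and 13626 normalized counts with rmTGF-β1 and at 5828, 6107 and 5986 with both proteins (log2 fold change -1.18, SE 0.13, adjusted p = 2.38e-07). Tgfb1 rose from 5942, 5553 and 5653 to 8313, 8285 and 8185 (log2 fold change 0.53, SE 0.08, adjusted p = 1.36e-05). Tgfb2 fell to 408.9, 437.5 and 411.1 (log2 fold change -0.43, SE 0.15, adjusted p = 0.0336), and was at -0.39 and not called without WT library 2 with rmTGF-β1. Tgfbr3 rose to 1384, 1483 and 1466 (log2 fold change 0.37, SE 0.12, adjusted p = 0.0183), still below each of the PBS libraries, a difference that was not tested. Tgfbr1 rose to 5877, 6229 and 6226 (log2 fold change 0.31, SE 0.09, adjusted p = 0.0121), although it was not called with rmCIRP alone. No binding protein gene was called. In all, 3 of the 10 genes rose and 2 fell, where 42.2% of all genes were called, 20.5% higher and 21.7% lower, and the libraries of 8 did not overlap, against 50% of all genes. Fibroblast marker sums were 641456 to 650959 with rmTGF-β1 and 519970 to 536013 with both, with 5 markers lower and 1 higher. The macrophage list had 6 lower and 4 higher, and the part of either in these values was not tested.

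Seen from the other side, rmTGF-β1 added to rmCIRP in WT cells was followed by the most calls. Of the 10 genes, 8 rose and 1 fell, where 20.5% of all genes were called, 10% higher and 10.5% lower. The libraries of all 10 genes did not overlap, as for 36.4% of all genes. Tgfbr1 rose by 0.62 (SE 0.09, adjusted p = 6.13e-05), Tgfb2 by 0.66 (SE 0.17, adjusted p = 0.00837), Tgfb1 by 0.44 (SE 0.08, adjusted p = 0.000317) and Ltbp2 by 0.39 (SE 0.08, adjusted p = 0.00149). Tgfbr2, Ltbp1, Ltbp3 and Ltbp4 rose by 0.14 to 0.23. Ltbp3 was at 0.12 and not called without WT library 1 with rmCIRP. Ltbp4 was at 0.21 and 0.20 and not called without WT library 1 or 3 with both. Tgfbr3 fell by 0.83 (SE 0.12, adjusted p = 2.41e-05). Tgfb3 was at 0.16 and not called (SE 0.13, adjusted p = 0.486), so rmTGF-β1 did not bring its level back to the 12734 to 14238 normalized counts seen with PBS. These comparisons share libraries with those above.

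A test of whether the effect of rmCIRP differed with rmTGF-β1 present called none of the 10 genes and 0.0492% of all genes (0.0369% higher and 0.0123% lower). At an unadjusted p under 0.05 it held Tgfbr1 alone among the 10 genes and 917 genes in all (5.64%), and DESeq2 called 37 genes, none of the 10. For Tgfbr1 the interaction was 0.32 (95% interval 0.05 to 0.59, adjusted p = 0.809). For Tgfb3 it was 0.17 (-0.21 to 0.55), and the Tgfb1 interval ran from -0.29 to 0.16.

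In cells labelled TLR4-/-, none of the 10 genes was called for both proteins against rmTGF-β1, where 2.69% of all genes were called, 1.56% higher and 1.13% lower. At an unadjusted p under 0.05 there were 4 of the 10 genes and 2912 genes in all (17.9%), and DESeq2 called 902 genes, 3 of the 10 among them (Tgfb3 and Ltbp2 lower and Tgfbr3 higher). The libraries overlapped for all 10 genes, and those of 13% of all genes did not. With both proteins Tgfb3 was at 8191, 7073 and 4557 normalized counts, against 9460, 9724 and 7292 with rmTGF-β1 (log2 fold change -0.42, SE 0.13, adjusted p = 0.107). Tgfbr3 was at 567.1, 679.0 and 966.2 against 505.6, 571.7 and 544.1 (log2 fold change 0.44, SE 0.13, adjusted p = 0.101). Tgfb2 was at 722.0, 551.8 and 362.6 against 774.5, 775.8 and 611.5 (log2 fold change -0.40, SE 0.15, adjusted p = 0.159). Ltbp2 was at 51339, 48062 and 36139 against 56823, 51058 and 51758 (log2 fold change -0.24, SE 0.08, adjusted p = 0.131). In each of these genes library 3 with both proteins, the library furthest from its condition, lay furthest from the rmTGF-β1 libraries. Without it the log2 fold changes were -0.21 for Tgfb3, 0.21 for Tgfbr3, -0.18 for Tgfb2 and -0.10 for Ltbp2, none of them called. Without library 1 with both proteins all 4 were called, at -0.60, 0.60, -0.65 and -0.34. They were also called without library 3 with rmTGF-β1, at -0.54, 0.45, -0.51 and -0.26. Without library 2 with both proteins Tgfb3, Tgfbr3 and Ltbp2 were called, at -0.48, 0.50 and -0.29.

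Against rmCIRP alone, both proteins raised 5 of the 10 genes and lowered 3 in cells labelled TLR4-/-, where 32.8% of all genes were called, 17.2% higher and 15.6% lower. Libraries of 7 of the 10 did not overlap, as for 34.5% of all genes. Tgfb1 was at 6773, 7362 and 7651 normalized counts (log2 fold change 0.69, SE 0.08, adjusted p = 3.73e-06; 0.65 without library 3 with both). Tgfbr1 was at 6082, 6488 and 6931 (log2 fold change 0.60, SE 0.09, adjusted p = 8.85e-05; 0.55 without it). Ltbp4 was at 607.6, 502.8 and 619.1, against 380.5 to 400.1 with rmCIRP (log2 fold change 0.56, SE 0.08, adjusted p = 2.73e-05; 0.51 without it). Ltbp1 and Ltbp3 rose by 0.26 and 0.14, or 0.29 and 0.13 without it. Tgfb3 fell by 0.58 (SE 0.13, adjusted p = 0.0023; -0.37 without it), and Tgfbr3 by 0.57 (SE 0.12, adjusted p = 0.002; -0.80 without it). Tgfb2 was called lower at -0.35 (SE 0.15, adjusted p = 0.0882), and that call was lost without library 3 with both (-0.13) or library 2 with both (-0.36). It was likewise lost without library 1, 2 or 3 with rmCIRP (-0.31, -0.34 and -0.37). Of the macrophage markers 3 were higher and 1 was lower in this comparison, of 5 endothelial markers 4 were higher, and of 5 markers of smooth muscle and mesothelium 4 were lower. Without library 3 with both, none of the macrophage markers was higher and 1 was lower, 1 endothelial marker was higher and 3 of smooth muscle and mesothelium were lower. Their part in it was not tested.

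In unstimulated cells all 4 binding protein genes were lower in libraries labelled TLR4-/- than in WT. Ltbp4 was at 430.7, 421.8 and 423.1 normalized counts, against 783.4, 834.6 and 849.3 in WT cells (log2 fold change -0.95, SE 0.07, adjusted p = 4.05e-10). Ltbp1 was at 10967, 10975 and 9579 against 18546, 19009 and 18547 (log2 fold change -0.84, SE 0.05, adjusted p = 1.24e-12). Ltbp2 and Ltbp3 were lower by -0.64 (SE 0.08, adjusted p = 9.13e-07) and -0.42 (SE 0.04, adjusted p = 3.95e-08). In no binding protein gene did the libraries overlap. In the paper, a pool of 3 to 4 lungs gave each group of fibroblasts. It does not say that the libraries of a group came from separate pools, so these p-values may not measure the spread between animals. Tgfb3 was lower by -0.45 (SE 0.13, adjusted p = 0.00711) and Tgfbr3 by -0.59 (SE 0.12, adjusted p = 0.000327). Tgfb2 was at 669.8, 716.4 and 690.9 and was higher by 0.61 (SE 0.15, adjusted p = 0.00251), and Tgfb1 was higher by 0.25 (SE 0.08, adjusted p = 0.0145). Tgfbr1 and Tgfbr2 were not called, with 95% intervals of -0.02 to 0.36 and -0.03 to 0.16. Without WT library 2 or library 3 labelled TLR4-/-, both with PBS, Tgfbr1 was called, at 0.23 in each case. In all, 2 of the 10 genes were higher and 6 lower, where 47.1% of all genes were called, 23.2% higher and 24% lower, and the libraries of 8 did not overlap, against 51.7% of all genes. The median was -0.43 over the 10 genes and -0.02 over all genes. All 13 macrophage markers were higher, with a median log2 difference of 2.19, and of the 10 fibroblast markers 2 were higher and 3 lower. All 3 epithelial markers tested were higher (median 1.89), of 5 endothelial markers 1 was higher and 3 lower (median -0.97), and of 5 markers of smooth muscle and mesothelium 3 were higher and 2 lower. The part of these cells in the lower binding protein levels was not tested.

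Genes that store and release latent TGF-β moved with rmCIRP in WT cells in both directions, with 6 of 19 higher and 9 lower. Of all genes tested, 43.9% were called in that comparison, 19.8% higher and 24.1% lower. Leaving out genes averaging under 50 normalized counts, the largest rises were in the integrin subunit Itgb3 (1.13, SE 0.23, adjusted p = 0.000389), the gelatinase Mmp9 (1.09, SE 0.10, adjusted p = 7.91e-09) and the integrin subunit Itgb8 (0.53, SE 0.22, adjusted p = 0.0576). The largest falls were in Nrros, which tethers latent TGF-β on macrophages and microglia (-1.65, SE 0.10, adjusted p = 2.16e-11), the fibrillin Fbn2 (-0.45) and the membrane protease Mmp14 (-0.42). Of 14 SMAD, co-receptor and inhibitor genes, 6 rose and 3 fell. Smad3, which carries the signal to the nucleus, rose by 0.41 (SE 0.12, adjusted p = 0.0111), the co-repressor Skil by 0.34 and the ubiquitin ligase Smurf2 by 0.13. The inhibitory Smad6 was at -0.44, the co-repressor Ski at -0.35 and the pseudoreceptor Bambi at -0.28. Of 9 TGF-β target genes none rose and 6 fell, led by Tgfbi (-0.90, SE 0.15, adjusted p = 4.44e-05), Col1a1 (-0.37) and Col3a1 (-0.35). Col1a1 and Col3a1 are also among the fibroblast markers, whose sum was lower with rmCIRP. The part of fibroblast content in these falls was not tested. Median log2 fold changes of the 3 lists were -0.04, 0.05 and -0.23, beside -0.02 over all genes. Nrros was at 426.9 normalized counts with PBS in WT cells and at 136.2 with rmCIRP, and the median over the macrophage markers there was -0.33 on the log2 scale.

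With rmTGF-β1 in WT cells, 7 of the 19 storage and activation genes rose and 2 fell, where 5.77% of all genes were called higher and 6.65% lower. Rises were led by the crosslinking enzyme Tgm2 (0.27), Mmp14 (0.26) and the proprotein convertase Furin (0.24), which cleaves the TGF-β precursor, and the falls were Mmp9 (-0.33) and Nrros (-0.29). Of the SMAD list 4 rose and 2 fell, and the feedback inhibitors Pmepa1 (0.47, SE 0.04, adjusted p = 1.06e-06), Skil (0.19) and Smad7 (0.17) led the rises. Smad3 fell (-0.40, SE 0.12, adjusted p = 0.0482), as did the type I receptor Acvrl1 (-0.18). Of the 9 targets 4 rose and none fell, led by Postn (0.42, SE 0.07, adjusted p = 0.000553) and Ccn2 (0.36). Smad3, Acvrl1 and Mmp9, like Tgfbr3, were thus called higher with rmCIRP and lower with rmTGF-β1, although these comparisons share their PBS libraries. Medians of the 3 lists were 0.10, 0.03 and 0.22.

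No gene of the 3 lists was called with rmCIRP in cells labelled TLR4-/-, by the same test, which called 0% of all genes there. With rmTGF-β1, 6 of the 19 storage and activation genes rose and 4 fell, with Itgb3 (0.84, SE 0.23, adjusted p = 0.0141), Emilin1 (0.41) and Tgm2 (0.39) rising most, and Fbn2 (-0.57) and Nrros (-0.34) falling most above the level of 50 normalized counts. Itgb3 ran from 1764 to 3541 normalized counts with rmTGF-β1, with a median of 2029, against 1283 to 1563 with PBS. The size of its rise thus leaned on the highest library. Of the SMAD list 6 rose and 3 fell, with Pmepa1 at 0.55, Smad6 at -0.62 and Smad3 at -0.56. Of the targets 4 rose, led by Tgfbi (0.71), and 2 fell, Tagln (-0.40) and Col3a1 (-0.32). Of all genes, 12.1% were called higher with rmTGF-β1 in these cells and 11.7% lower. Between the genotypes with PBS, 6 of 19, 3 of 14 and 3 of 9 were higher and 8, 6 and 2 were lower, where 23.2% of all genes were called higher and 24% lower. Nrros at 2.04, Tgfbi at 1.62 and Mmp9 at 0.95 were among the higher, and Emilin1 at -0.58 among the lower. The difference between genotypes in the rmCIRP response was called for 14 of 19, 5 of 14 and 3 of 9 genes, against 31.4% of all genes. It was largest for Nrros (1.63), Itgb3 (-1.28) and Mmp9 (-1.06). The difference in the rmTGF-β1 response was called for no gene of the lists and for 0.0861% of all genes.

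With both proteins against rmTGF-β1 in WT cells, 5 of the 19 storage and activation genes rose and 8 fell. Of all genes, 20.5% were called higher in that comparison and 21.7% lower. Mmp9 rose by 2.13 (SE 0.10, adjusted p = 1.42e-13), Itgb3 by 1.10 and Emilin1, which limits processing of the TGF-β precursor, by 0.65, while Nrros was at -1.41, Mmp14 at -0.47 and Lrrc32, a cell-surface anchor of latent TGF-β, at -0.39. Of the SMAD list 3 rose and 3 fell, and of the targets none rose and 4 fell. Against rmCIRP alone, 8, 5 and 5 genes of the lists rose and none, 2 and none fell, with Tgfbi at 0.98. There 10% of all genes were called higher and 10.5% lower. Mmp9 was the only gene of the lists called for the interaction of rmCIRP with rmTGF-β1 (1.04, SE 0.14, adjusted p = 0.0023), where 0.0492% of all genes were called. In cells labelled TLR4-/-, 2.69% of all genes were called for both proteins against rmTGF-β1. Of the lists, Smad3 was called higher (0.47) and Mmp14 (-0.27), Acta2 (-0.34) and Ccn2 (-0.32) lower, with adjusted p from 0.0814 to 0.0992. None of the 4 was called without library 3 with both proteins, at 0.28, -0.14, -0.18 and -0.17. Against rmCIRP there, 5, 8 and 2 genes of the lists rose and 3, 3 and 2 fell, with Itgb3 at 1.62, where 17.2% of all genes were called higher and 15.6% lower. Without library 3 the list genes called were 5, 6 and 3 higher and 2, 2 and 1 lower, with Itgb3 at 1.23.

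**Figure D4:**
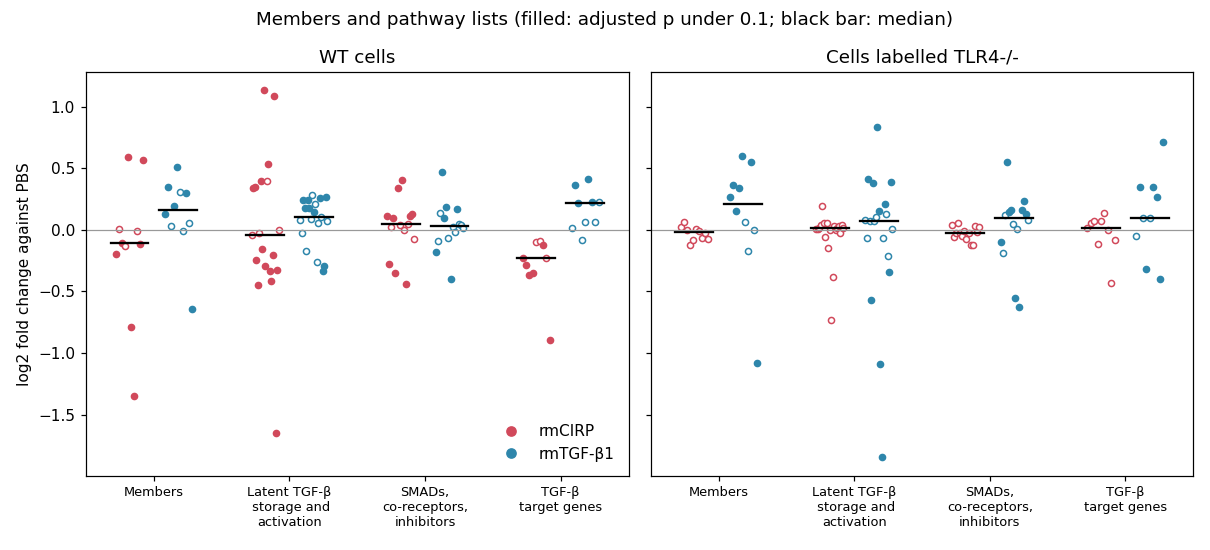
Log2 fold changes against PBS (vertical axis) of the 10 genes and of 3 lists of pathway genes (19, 14 and 9 genes) with rmCIRP (red) and rmTGF-β1 (blue), in WT cells (left) and cells labelled TLR4-/- (right). Filled points had an adjusted p under 0.1 and black bars are medians. The TGF-β target genes had a median of -0.23 with rmCIRP and 0.22 with rmTGF-β1 in WT cells.

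Across the 24 libraries the binding protein genes varied together, with Pearson's r of log2 normalized counts between 0.893 and 0.971 for their 6 pairs, which share the difference between genotypes. The ligand genes did not vary as a group: r was -0.70 for Tgfb1 and Tgfb3, 0.58 for Tgfb2 and Tgfb3 and -0.22 for Tgfb1 and Tgfb2. Tgfb1 varied with Tgfbr1 (0.81), and Tgfb2 and Tgfbr3 varied in opposite directions (-0.78). These are descriptions over libraries that share treatments and genotype. Among 12301 other genes that averaged 50 or more normalized counts, the patterns most like Tgfb3 were those of Ttc28 (r = 0.987), Vsig10l (0.985) and Tnk2 (0.982). For Tgfb1 they were Gjb2 (0.957), Mfhas1 (0.956) and Ppfibp2 (0.950), and for Tgfb2 Lratd2 (0.945), Ccdc80 (0.943) and Hs6st1 (0.938). The nearest to Tgfbr3 were St3gal1 (0.984), Tbc1d2b (0.983) and Fosl2 (0.979), and to Tgfbr1 Jag1 (0.955), Fgf18 (0.940) and Rhoq (0.939). Tgfbr2, which varied least, had none above 0.768 (Twf1, then Plod2 at 0.733 and Itga11 at 0.719). Ltbp2 was closest to Slc2a10 (0.986), Zfp354c (0.984) and Maged1 (0.980). Ltbp1 was closest to Nbea (0.969), Syt13 (0.968) and Smoc2 (0.965), Ltbp3 to Mfap4 (0.955), Smoc2 (0.952) and Nbea (0.949), and Ltbp4 to 2700081O15Rik (0.957), Smoc2 (0.957) and Adcy2 (0.947). Within the 12 WT libraries Smoc2 had r = 0.359 with Ltbp1 and 0.503 with Ltbp4, and Adcy2 had 0.176 with Ltbp4. Taking each genotype alone, the genes named had r of 0.359 to 0.940 with Ltbp1 and 0.447 to 0.915 with Ltbp3. With Ltbp4 it ran from 0.176 to 0.877, with Tgfbr2 from 0.387 to 0.873 and with Ltbp2 from 0.875 to 0.968.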

How the data were processed

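Total RNA was extracted with mirVana, prepared with the TruSeq Stranded Total RNA kit and sequenced on a NextSeq 550. Alignment by the authors used STAR2 and a mouse GENCODE reference. They deposited unnormalized ht-seq counts, 1 value for each gene symbol and library. The submitters' processing notes name FastQC, HTSeq and the build NCBIM37. The annotation release and strand option are not given in the sources used here. The 5 tally lines for reads not assigned to a gene (14.5% to 16.1% of a library) were left out.

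In R 4.3.3, edgeR 4.0.16 was run on the counts with filterByExpr, TMM scaling and a mean for each of the 8 conditions over 24 libraries. The quasi-likelihood F-test was adjusted by Benjamini-Hochberg over 16258 genes for each of 12 comparisons, and an adjusted p under 0.1 was called, the study's threshold. Each SE was obtained by dividing the absolute log2 fold change by √F. Normalized counts are counts divided by the median-of-ratios size factors of DESeq2 1.42.0. Exon lengths are from GENCODE M21. The common biological coefficient of variation was 0.0571. The fit was also run on simulated counts with the same spread for every gene, a setting simpler than these data.

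The members and lists were chosen with earlier results of these data known. All 10 genes are named. Named from each list were up to 3 called rises and 3 called falls among genes averaging 50 or more normalized counts, although not every gene so selected is printed, and 3 genes of most similar pattern per member. Markers of fibroblasts, macrophages, epithelium, endothelium, and smooth muscle and mesothelium were summed. The epithelial sum was 24.4 to 346 normalized counts, the endothelial 575 to 1436, and that of smooth muscle and mesothelium 15521 to 37933. In WT cells with rmCIRP, 3 of 3 epithelial markers tested, 1 of 5 endothelial and 2 of 5 of the last list fell, and 1 endothelial marker rose. Alternatives were DESeq2, RLE scaling, no filter, a mean count of at least 10, the replicate number as a block, a fit of only the libraries compared, and leaving out each library in turn. The values of the pathway and marker lists without library 3 labelled TLR4-/- with both proteins were added after seeing the data.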

Additional observations from a re-analysis of the deposited data

Results flagged for a closer look

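In 5 of the 10 genes the response to rmCIRP differed between the genotypes by the direct test. As the response in libraries labelled TLR4-/- minus that in WT cells, on the log2 scale, the difference was 1.34 for Tgfb3, 0.80 for Tgfb2, 0.22 for Ltbp1, -0.67 for Tgfb1 and -0.64 for Tgfbr3. All 5 were called under every alternative run, including without each of the 12 libraries concerned. Genotype, macrophage marker level and Xist differ together between these libraries and cannot be told apart.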

How the results depend on the processing

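Of 120 pairs of gene and comparison, 55 were called. None of the 55 changed direction under any alternative, 45 were called under all of them, 4 were lost under a setting that keeps all libraries and 10 without some library. Of the 65 pairs not called, 42 were under 0.1 in size on the log2 scale, and 20 of these changed sign under some alternative. Under a setting that keeps all libraries, 12 pairs not called were called, among them, with no filter and with only the libraries compared, Tgfb2 with rmTGF-β1 in WT cells (0.32 in each), Tgfb3 for both against rmCIRP in WT cells (0.16 in each) and Tgfbr1 between genotypes (0.18 in each). In counts of members, no filter moved the falls with rmCIRP in WT cells from 5 to 3, the falls with rmTGF-β1 in cells labelled TLR4-/- from 1 to 2, and those of the genotype difference in the rmTGF-β1 response from 0 to 1. The interaction had 0 rises, and 1 (Tgfbr1) with no filter or only the libraries compared. For both proteins against rmTGF-β1 in cells labelled TLR4-/-, rises went from 0 to 1 with DESeq2, no filter or a mean count of at least 10, and falls from 0 to 2 with DESeq2 and 3 with no filter. Leaving out each library in turn gave 3 to 5 falls with rmCIRP and 2 to 3 rises with rmTGF-β1 in WT cells, 1 to 2 falls for both against rmTGF-β1 in WT cells, 0 to 1 rises and 0 to 3 falls for the same in cells labelled TLR4-/-, and 2 to 4 rises between genotypes. The cause was not tested.

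Whether same-numbered libraries of different conditions share more than a number is not stated. Their deviations had a mean correlation of 0.0111 over 84 pairs (-0.111 to 0.350), and 13 of 24 libraries correlated best with their own number. These values do not settle whether the libraries were paired. The replicate block removed 1 call (Ltbp1 with rmTGF-β1 in WT cells) and added 4, all for both proteins against rmTGF-β1 in cells labelled TLR4-/-, where 1 rose and 3 fell.

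Over all genes, that comparison had 437 calls, and 902 with DESeq2, 1580 with no filter, 810 with the block and 0 in a fit of only its libraries. Both proteins against rmCIRP there had 5329, and 2710 in such a fit. rmCIRP there had 0, and 33, 149, 1 and 29 with DESeq2, no filter, the block and such a fit. The genotype difference in the rmTGF-β1 response had 14, and 163, 563 and 22 with DESeq2, no filter and the block, and 23 with a mean count of at least 10. The interaction had 8, and 37, 198 and 125 with DESeq2, no filter and such a fit.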
